A study of Mus musculus with 6 samples.

Results

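The 39 genes described here encode part of the antioxidant, glutathione and thioredoxin proteins of the mouse, most of them enzymes, with some factors that control them. They were chosen by symbol from a fixed list, and all 39 were found among the 33924 genes of the table. RNA came from RPE/choroid, that is, the retinal pigment epithelium (RPE) together with the vascular layer beneath it, of wild-type C57BL/6J mice with no transgene and no treatment. There were 3 libraries from young mice, labelled 1 to 2 months, and 3 from aged mice, labelled 20 to 24 months in the titles and 22 to 24 months in the time label. The labels give every mouse as male, but animals of either sex and an older young group are described in the study's methods. Each library was made from a pair of eyes, after removal of ribosomal RNA and without selection for poly(A) tails.

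The study was concerned with histones in the ageing tissue, and the RNA was sequenced to look for age-related change in their transcripts. The value analysed here is 1 number per gene, the authors' mean of normalized counts over all 6 libraries (baseMean). Young and aged libraries enter that mean together. The levels below therefore carry no standard deviation, no value per mouse and no test between ages, and the depth of each library is unknown here. Whether any of the 39 genes differed between young and aged mice cannot be read from these levels. An order of genes with close values cannot be set against the spread between mice either.

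Cells meet reactive oxygen with enzymes that work in series. Superoxide dismutases turn superoxide into hydrogen peroxide, and catalase, glutathione peroxidases and peroxiredoxins then remove the peroxide. Typical glutathione peroxidases draw on glutathione, a small cysteine peptide, and typical peroxiredoxins draw on thioredoxin. Glutathione and thioredoxin are both returned to their reduced form with NADPH. The transcription factor Nrf2, encoded by Nfe2l2, drives many of these genes from antioxidant response elements and is kept low by its adaptor Keap1. The RPE is known for a heavy oxidative load, as it lies beside a rich blood supply, absorbs light and digests photoreceptor membranes.

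The tissue was checked against defining markers. RPE markers were present, with the retinoid isomerase Rpe65 at an authors' mean of 43745 and Rlbp1 at 30062. All 9 stood above 0, but the chloride channel gene Best1 had a mean of 69.8, below 82.1, the median of genes above 0. Pigment cell markers were also high, with Dct at 89145, as were fibroblast genes, with Col1a1 at 45848. Markers of tissue outside RPE and choroid were present too, with the muscle gene Acta1 at 17441. The 5 macrophage markers ranged from 779 to 4063, and the 5 endothelial markers from 1025 to 6377. In such a mixture, the number of cells of a type and the RNA per cell cannot be told apart, and no level below is assigned to a cell type.

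Sequences that separate the members are given first. The 4 selenocysteine members are set beside their cysteine relatives, because this residue defines the active site. Selenocysteine is encoded by TGA, which elsewhere is a stop codon. The stretches run 5′ to 3′ along the coding strand of GENCODE transcripts (GRCm38), and capitals mark the selenocysteine codon, or the codon aligned with it in Gpx7 and Gpx8.

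Gpx1: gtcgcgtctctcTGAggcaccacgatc
Gpx3: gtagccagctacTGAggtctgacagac
Gpx4: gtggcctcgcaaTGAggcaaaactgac
Gpx7: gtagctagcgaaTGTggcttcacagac
Gpx8: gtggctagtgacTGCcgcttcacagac
Txnrd1: cagtctggctgcTGAggttaa

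In Gpx1 the codon is number 47 of 201, and in Gpx3 and Gpx4 it is number 73, of 226 and 197. Txnrd1 carries it as number 498 of 499, directly before its last residue and the stop. Gpx7 has the cysteine codon TGT at number 56, and Gpx8 has TGC at number 79. None of the other 33 members has an annotated selenocysteine codon.

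The 3 small dithiol proteins of the list share a pair of cysteines with 2 residues between them, which carries out the exchange of disulfides. Capitals mark these 4 codons.

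Txn1: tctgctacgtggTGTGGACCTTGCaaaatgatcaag
Txn2: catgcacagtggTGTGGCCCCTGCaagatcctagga
Glrx: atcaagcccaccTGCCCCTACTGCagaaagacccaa

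Thioredoxin Txn1 has the site at codons 32 to 35 and mitochondrial Txn2 at codons 90 to 93, while the glutaredoxin Glrx has it at codons 23 to 26. The metallothioneins Mt1 and Mt2, which bind zinc and copper through cysteine, are shown whole, with each cysteine codon in capitals.

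Mt1: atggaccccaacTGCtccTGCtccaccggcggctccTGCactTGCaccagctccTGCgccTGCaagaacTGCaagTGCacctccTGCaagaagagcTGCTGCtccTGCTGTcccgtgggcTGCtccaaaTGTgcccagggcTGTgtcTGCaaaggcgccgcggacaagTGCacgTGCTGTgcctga
Mt2: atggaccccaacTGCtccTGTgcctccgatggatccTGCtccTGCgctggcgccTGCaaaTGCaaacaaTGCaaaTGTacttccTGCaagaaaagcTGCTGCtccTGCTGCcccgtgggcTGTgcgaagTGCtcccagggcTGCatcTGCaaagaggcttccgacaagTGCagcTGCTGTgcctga

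Each has 20 cysteine codons among 61, or 32.8%, of which 16 are TGC and 4 are TGT. Their coding sequences are the same at 79.6% of 186 aligned bases. Among the other members the cysteine share ran from 0 codons in Gsta4 to 5.71% in Txn1.

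All 39 genes had a mean above 0. Authors' means ran from 147 for Glrx to 8351 for Prdx1, a span of 56.9-fold, with a median of 1394. The lowest member stood above 82.1, the median of the 26681 genes with a mean above 0. Against the 16462 protein-coding genes above 0, whose median was 333, 36 members lay above the median, and Glrx, Gpx7 and Msra lay below it. The top 10% of protein-coding genes began at 2319 and held 13 of the 39 (33.3%). Together the 39 genes held 0.406% of the summed mean of the table, and 5 of them held 38.8% of the members' own sum.

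**Figure D1:**
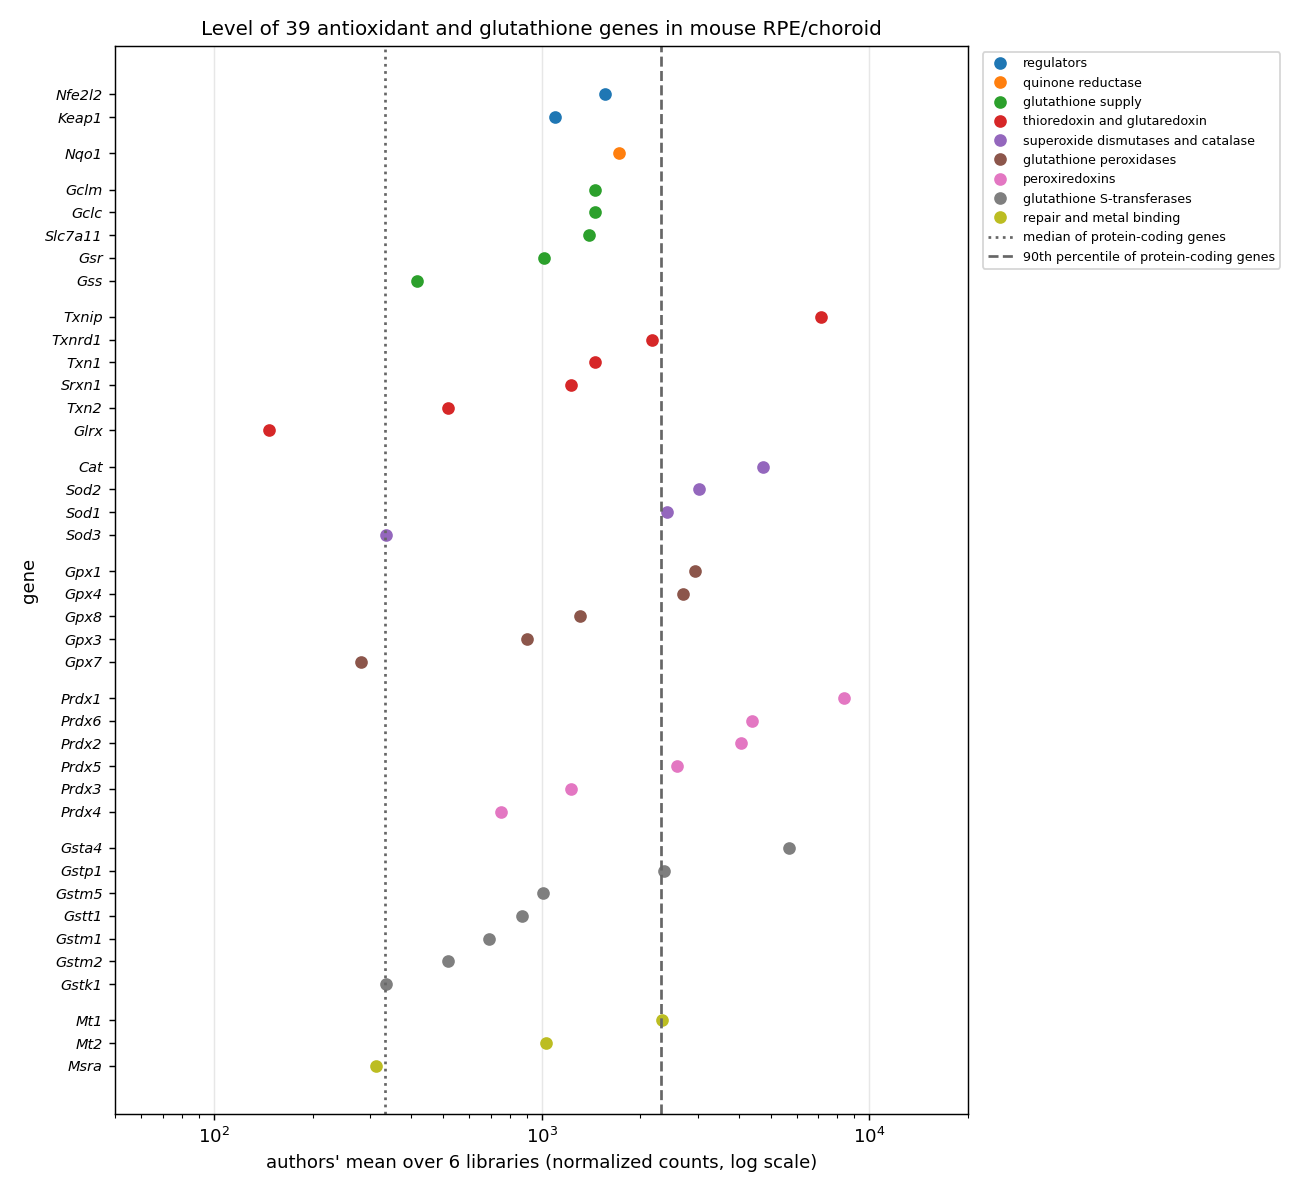
Authors' mean over 6 libraries in normalized counts (log axis) for each of the 39 genes, grouped by role, with 1 point per gene and no error because no value per library was analysed. The dotted line is the median of protein-coding genes (333) and the dashed line their 90th percentile (2319), and 36 points lie to the right of the first and 13 to the right of the second.

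Levels of different genes were compared per length, on the reading that the authors' means are not already scaled by it. The study's methods name TPM, an abundance unit scaled by transcript length, as the step before the normalized counts. In the table, the median mean rose from 91.3 over the 4116 shortest protein-coding transcripts to 842 over the 4116 longest, and per kilobase of transcript from 79.8 to 139. If some length scaling did remain, the authors' mean would itself be the level per length, so authors' means are given throughout and per-length levels beside most of them. Per kilobase (kb) of coding sequence, the members ranged from 293 normalized counts for Gss to 13988 for Prdx1, with a median of 1594, against a median of 230 over protein-coding genes. All 39 lay above that median, and 18 lay in the top 10%, which began at 1789. The members' coding sequences were short, with a median of 672 bases against 1314 over protein-coding genes, and 30 of the 39 were under 1000 bases. Reads also fall on untranslated parts, so the same mean was divided by the length of the whole transcript chosen for each gene as well. On that scale the order changed: Gsta4 came first with 5832, followed by Mt1 with 4232, Sod1 with 3763 and Prdx1 with 3640. With the longest annotated transcript in place of the chosen one, Gsta4 stayed first and Prdx1 came next, while Mt1 stood at 2141 and Sod1 at 608. The 10 highest genes by coding length shared 7 with those by chosen transcript and 7 with those by longest transcript. Below, "per kb of transcript" means the chosen transcript, and the longest is given where it changes an order.

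**Figure D2:**
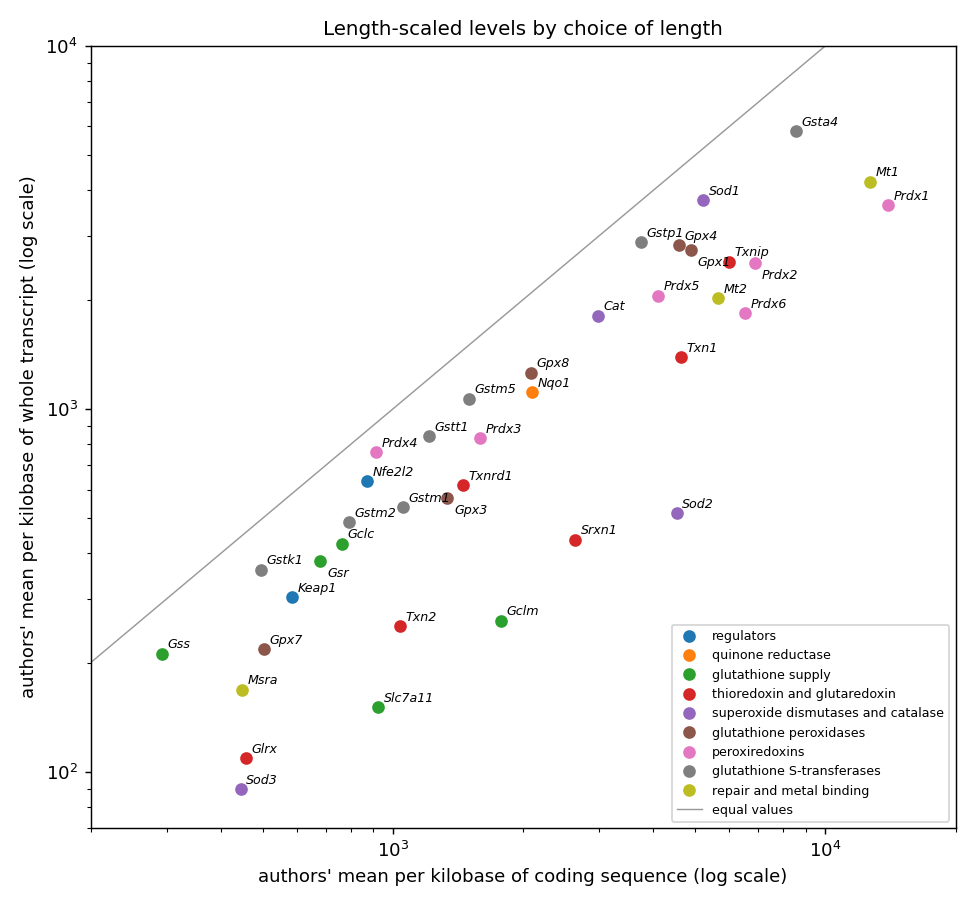
Authors' mean per kilobase of coding sequence (x axis, log scale) against the same mean per kilobase of whole transcript (y axis, log scale), 1 labelled point per gene, coloured by role, with a line of equal values. Genes with long untranslated parts lie far below the line, such as Slc7a11 at 925 and 151 and Sod2 at 4535 and 515.

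The regulators came first in the order of roles. Nfe2l2, on chromosome 2 at 75675513 to 75704641, had an authors' mean of 1564, and 16.3% of protein-coding genes stood higher. Keap1, on chromosome 9 at 21229730 to 21239361, had a mean of 1096. Per kb of coding sequence these were 873 and 585, and per kb of transcript 632 and 303, so Nfe2l2 was the higher on both scales. Nqo1, the quinone reductase that is a classical Nrf2 target, had a mean of 1726 and reached 2100 per kb of coding sequence.

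The next 5 genes supply and recycle glutathione. The catalytic and modifier subunits of glutamate-cysteine ligase, which sets the rate of glutathione synthesis, had means of 1455 for Gclc and 1461 for Gclm. Their lengths differ, so Gclm was higher per kb of coding sequence, 1777 against 761, and lower per kb of transcript, 261 against 425. The order of these subunits thus depends on the length used. Slc7a11, the cystine importer, had a mean of 1394, and Gsr, which reduces oxidised glutathione, had 1020. They stood at 925 and 680 per kb of coding sequence, and per kb of transcript at 151 and 382. Glutathione synthetase Gss, the enzyme of the last step, had a mean of 416 and the lowest level per kb of coding sequence among all members. Gss stood at 212 per kb of transcript, above Slc7a11, but with its longest transcript Gss was the lower, at 128.

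The thioredoxin and glutaredoxin group ran from 457 per kb of coding sequence for Glrx to 5992 for Txnip. Txnip, whose protein binds thioredoxin and is known to limit glucose uptake, had a mean of 7119 (chromosome 3, 96557957 to 96561883), and only 1.67% of protein-coding genes were higher. Per kb of transcript Txnip stood at 2547, again the highest of this group. Cytosolic Txn1 had a mean of 1459 and mitochondrial Txn2 one of 518. They stood at 4630 and 1039 per kb of coding sequence, and per kb of transcript at 1388 and 253. Txnrd1, the cytosolic reductase that serves Txn1 and is 1 of the 4 selenocysteine genes above, had a mean of 2177. Its mitochondrial counterpart Txnrd2, which is outside the 39 genes and serves Txn2, had a mean of 190. Sulfiredoxin Srxn1, which repairs over-oxidised peroxiredoxins, had a mean of 1227. Txnrd1 and Srxn1 stood at 1454 and 2639 per kb of coding sequence, and per kb of transcript at 617 and 436, so their order turned with the length. Glrx had a mean of 147, below 63.3% of protein-coding genes, and it was also the lowest of the group per kb of transcript, at 109, and of all 39 genes with the longest transcript, at 34.7.

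Among enzymes that act on superoxide and peroxide, catalase Cat had a mean of 4725, mitochondrial Sod2 had 3021 and cytosolic Sod1 had 2412. Extracellular Sod3 had a mean of 335, and its level per kb of transcript was 89.7, the lowest of all 39 genes with the chosen transcript and above Glrx alone with the longest. Per kb of coding sequence Sod1 reached 5221, Sod2 4535, Cat 2989 and Sod3 445. Per kb of transcript Sod2 was below both, with 515 against 3763 for Sod1 and 1808 for Cat. The longest Sod1 transcript has 3970 bases against 641 in the chosen one, and with it Sod1 stood at 608, near Sod2 and below Cat.

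Of the glutathione peroxidases, Gpx1, the main cytosolic form, had a mean of 2943, and Gpx4, which reduces lipid peroxides in membranes, had 2711. Per kb of coding sequence they stood at 4881 and 4588, and per kb of transcript at 2746 and 2827, so their order turned with the length. With the longest transcript Gpx4 stood at 2725. The secreted plasma form Gpx3 had a mean of 905 and was lower per kb of coding sequence, at 1335. The cysteine forms of the endoplasmic reticulum differed from each other, with Gpx8 at a mean of 1311 and 2091 per kb of coding sequence, and Gpx7 at a mean of 280 and 503 per kb of coding sequence. Gpx8 was above the selenocysteine form Gpx3 on both length scales, with 1258 against 568 per kb of transcript, and Gpx7 was below it on both, with 218 per kb of transcript.

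Peroxiredoxins held the largest share of the members' summed mean, 27.4%. Prdx1, on chromosome 4 at 116685544 to 116700822, had a mean of 8351, and 1.18% of protein-coding genes were higher. The single-cysteine form Prdx6 had a mean of 4383, cytosolic Prdx2 one of 4075 and Prdx5 one of 2588. The mitochondrial form Prdx3 had a mean of 1229 and the secretory-pathway form Prdx4, on chromosome X, had 753. Per kb of coding sequence these 6 genes ran from 916 for Prdx4 to 13988 for Prdx1. On that scale Prdx2 was above Prdx6, with 6860 against 6522, and Prdx5 stood at 4108 and Prdx3 at 1594. By transcript length Prdx2 stood at 2528, Prdx5 at 2051, Prdx6 at 1836 and Prdx3 at 831, and with the longest transcripts Prdx6, at 1713, was again above Prdx5, at 1417. Prdx1 and Prdx4 were also the highest and the lowest per kb of transcript, at 3640 and 761.

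Glutathione S-transferases, which attach glutathione to electrophiles, differed widely. Gsta4, specialised for the lipid peroxidation product 4-hydroxynonenal, had a mean of 5698 (chromosome 9, 78182774 to 78209349), and its level was 8556 per kb of coding sequence. Gstp1 had a mean of 2367 and stood at 3757 per kb of coding sequence. The mu class genes on chromosome 3 had means of 1010 for Gstm5, 691 for Gstm1 and 519 for Gstm2, which gave 1502, 1057 and 794 per kb of coding sequence. Gstt1, with a mean of 874, stood at 1214 on that scale, and the mitochondrial and peroxisomal Gstk1, with a mean of 335, at 495. Gstk1 was the lowest of the 7 per kb of transcript as well, at 361. Gstm1 and Gstm2 lie 25801 bases apart on the same strand and share 86.0% of aligned coding bases, against 71.2% for Gstm1 and Gstm5.

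In the last group, Mt1 and Mt2 lie 5513 bases apart on chromosome 8, on the same strand. Mt1 had a mean of 2323 and Mt2 one of 1034, a ratio of 2.25. Per kb of transcript the levels were 4232 and 2023. With the longest Mt1 transcript, of 1085 bases, its level was 2141, close to that of Mt2. Msra, which repairs oxidised methionine, had a mean of 313 and stood at 448 per kb of coding sequence and 168 per kb of transcript.

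Summed by role, peroxiredoxins ranked first on the authors' mean and per kb of coding sequence, with 27.4% and 28.1% of the members' sum. Per kb of transcript, glutathione S-transferases came first with 22.8%, just ahead of peroxiredoxins with 22.1%, and with the longest transcripts the shares were 25.4% and 23.6%. These orders hold for the listed genes only. Prdx1 to Prdx6 are all among them, while the transferases Gsto1, Mgst1 and Gsta3, with authors' means of 6974, 2798 and 1455, are not. Other transferases compared from outside the list were lower, with Gstm3 at 0. Glutathione supply held 7.37% of the summed mean but 3.67% and 2.72% on the length scales. Metal binding and repair moved the other way, from 4.71% to 15.5% and 12.2%, as the metallothioneins are short, and to 9.32% with the longest transcripts.

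**Figure D3:**
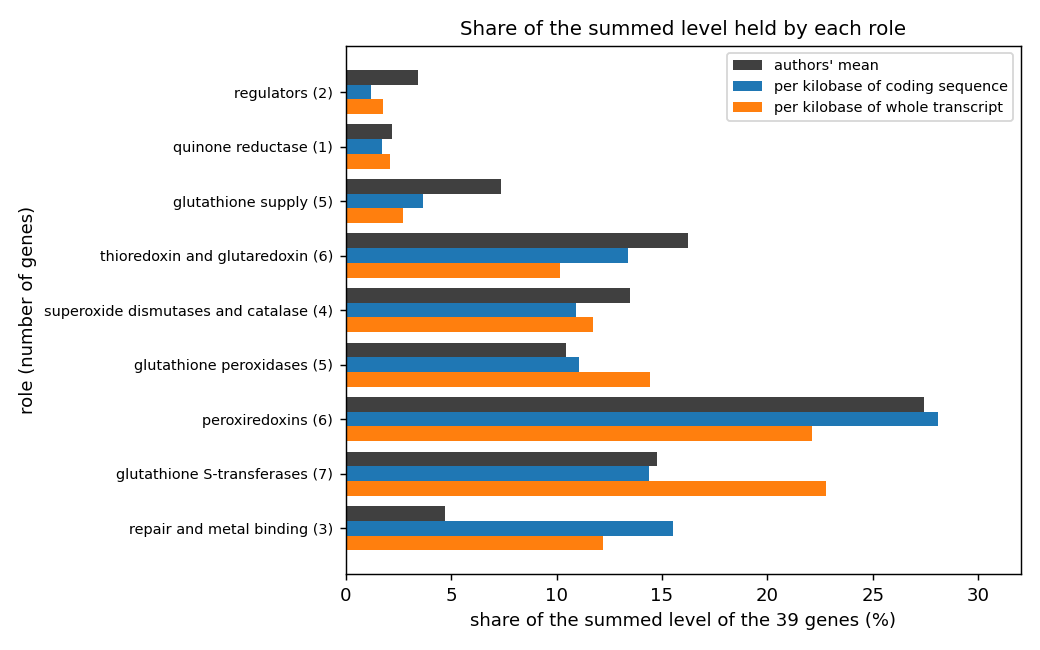
Share of the summed level of the 39 genes (x axis, %) held by each role (y axis, number of genes in brackets), with 3 bars per role for the authors' mean and for the mean per kilobase of coding sequence and of whole transcript. Peroxiredoxins have the longest bar on the first and second scales (27.4% and 28.1%), and glutathione S-transferases on the last (22.8%).

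How reads were divided between near-identical genes limits some of these values. For each member, the share of 31-base words in its transcript that occur in no other annotated gene was counted. It was at least 90% for 32 members and under 90% for 7. The lowest shares were 25.9% for Gpx4, 73.6% of whose words recur in its pseudogene Gpx4-ps2, and 32.5% for Gstp1, most of which is shared with its neighbour Gstp2. Gstp2 had an authors' mean of 22.6. For Sod1 the share was 64.6%, and its closest copy Gm8566 had a mean of 322. Gstm1 had 65.7%, Gstm2 80.5%, Prdx1 82.2% and Prdx2 86.0%. Gpx4-ps2 and the copies that share most words with Prdx1 and Prdx2 had no authors' mean under their symbols. Levels of these 7 genes are uncertain to the extent that reads went to a copy or came from one.

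Promoter windows were searched for the core of the antioxidant response element, TGACNNNGC, on both strands. RefSeq windows from 250 bases before to 50 bases after each annotated start (GRCm38.p6) were matched for 33 of the 39 members by symbol. The core was found in 8 members (24.2%), namely Nfe2l2, Gclm, Txnrd1, Srxn1, Sod1, Prdx1, Gstm5 and Mt2. Over all 27025 genes with a window, 14.0% held it. Extended by the A that follows it in the longer element, it was found in 1 member (3.03%) and in 3.45% of all genes. The share per window was 20.0% of 40 member windows and 12.4% of 32851 windows. With 33 genes this is a description, and it says nothing of binding. The matches in the Nrf2 gene itself and in 4 genes of glutathione synthesis, thioredoxin recycling and peroxide removal are printed, with the core, or its reverse complement, in capitals.

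Nfe2l2 (chr2:75704884-75704913, minus strand): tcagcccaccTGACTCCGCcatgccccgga
Gclm (chr3:122245412-122245442, plus strand): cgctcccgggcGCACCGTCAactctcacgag
Txnrd1 (chr10:82859103-82859133, plus strand): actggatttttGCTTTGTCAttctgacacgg
Srxn1 (chr2:152105541-152105571, plus strand): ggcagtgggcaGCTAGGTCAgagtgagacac
Prdx1 (chr4:116685455-116685485, plus strand): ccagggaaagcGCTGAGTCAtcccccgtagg

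The core began 240 bases before the RefSeq start in Nfe2l2, 134 in Gclm and 133 in Prdx1, and 28 bases after it in Srxn1. In Txnrd1 it began 92 bases before an internal start at 82859206, whereas the gene begins at 82833951. The match in Txnrd1 is the one that holds the longer element. In Mt2, Sod1 and Gstm5 the core began 79, 56 and 42 bases before the start. The 8 genes had authors' means from 1010 for Gstm5 to 8351 for Prdx1.

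Other genes of the same pathways were compared from a list of 60 symbols, of which 58 were in the table. Their median authors' mean was 555, and 16 lay at or above 1700, where the top 10% of all genes above 0 began, as did 15 of the 39 members. The 4 with a mean above that of Prdx1 were the selenium carrier Sepp1 with 26257, the ferritin genes Fth1 with 20357 and Ftl1 with 10107, and the autophagy receptor Sqstm1 with 10237. Per kb of coding sequence Fth1 and Ftl1 stayed above Prdx1, with 37284 and 18410, and Sqstm1 was below it with 7720. All 3 were above Prdx1 per kb of transcript, with 13626, 10441 and 5025 for Fth1, Ftl1 and Sqstm1 against 3640. Sepp1 had no matched length. In the pentose phosphate pathway, the NADPH-producing enzymes G6pdx and Pgd stood at 538 and 703 per kb of coding sequence, and Tkt and Taldo1 of its later steps at 3762 and 6799. Their authors' means were 831, 1018, 7031 and 6874. Haem oxygenase Hmox1, an inducible Nrf2 target, had an authors' mean of 397, or 458 per kb of coding sequence. Slc3a2, the partner of Slc7a11 at the membrane, had an authors' mean of 2379, or 1508 per kb of coding sequence.

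Some family members outside the 39 genes had little or no signal. Gpx5, Gpx6, Gstm3 and Mt4 were listed at 0, and Gpx2 had a mean of 3.53. Their relatives in the list, Gpx1, Gstm1 and Mt1, had means of 2943, 691 and 2323. The omega class transferase Gsto1, also outside the 39 genes, had a mean of 6974 and stood at 9686 per kb of coding sequence, above the 8556 of Gsta4.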

How the data were processed

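The table used was deposited by the authors. Reads were trimmed with BBDuk, mapped with STAR to Ensembl transcripts of GRCm38, quantified with Sailfish as TPM, turned into normalized counts by the total count method and compared with DESeq2 by the authors. Sailfish divides reads that fit several transcripts in proportion, so levels of near-identical genes depend on that division. Of the 6 columns beside the gene symbol, the deposited baseMean was used, a normalized signal that is never negative and is the authors' mean over all libraries. The other 5 hold the authors' own comparison of young and aged mice (log2 fold change, its standard error, Wald statistic, p and adjusted p) and were not used, so no test was run and no fold change is given. Depth per library is not given in the sources used here, and no interval could be computed.

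Members were matched by symbol. Members, roles and lists were chosen with earlier results of these data known, and all members are named by rule. Coding and transcript lengths were taken from GENCODE M21 (GRCm38), using for each gene the APPRIS principal protein-coding transcript, then the longest coding sequence. Of the symbols in the table, 28553 matched. As no protein table was used here, lengths come from annotated coding sequences, and aligned codons and identities from their translation and alignment (Biopython 1.88, Python 3.11.15, pandas 2.3.3). Whether the means rise with transcript length was examined after seeing the data. The motif search was tested on simulated sequences. Not every marker examined is reported here.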

Additional observations from a re-analysis of the deposited data

How the results depend on the processing

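All 39 members were above 0 and all 39 had a mean of at least 10. The number in the top 10% was 15 against genes above 0, 20 against all genes of the table, 13 against genes with a mean of at least 10, 13 against protein-coding genes and 18 per kb of coding sequence. The median level per kb was 1594 by coding length, 632 by the longest annotated transcript and 761 by the chosen transcript. As no spread between mice was available, a share was taken as moved when it changed by over 1.5 times. For regulators it moved from 3.41% to 1.21% per kb of coding sequence and 1.77% per kb of transcript, and for glutathione supply from 7.37% to 3.67% and 2.72%. Per kb of transcript it moved to 10.2% for the thioredoxin group and 22.8% for glutathione S-transferases. For repair and metal binding it was 15.5% and 12.2% per kb, and 0.448% without Gstm1, Gstm2, Gstm5, Gstp1, Mt1 and Mt2, since that leaves Msra alone. With the longest transcripts it was 2.03% for regulators, 2.93% for glutathione supply, 6.57% for superoxide dismutases and catalase against 13.5%, 16.3% for glutathione peroxidases against 10.5%, 25.4% for glutathione S-transferases and 9.32% for repair and metal binding. The element core extended by 1 base left 1 member in place of 8, or 3.03% of members against 3.45% of all genes. The higher share in members seen with the shorter core (24.2% against 14.0%) was not seen there. With 1 match among 33 members, the extended core cannot show whether that higher share holds. Ranking over protein-coding genes, and role shares by chosen and by longest transcript, as well as levels by chosen transcript, were chosen after seeing the data. No paired analysis was possible because each gene has a single value pooled over the libraries, and for the same reason leaving out a replicate, other pseudocounts and other tests were not run.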
